A study of Mus musculus with 12 samples.

Results

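The difference between DOT1L knockout (KO) and wild-type (WT) macrophages in their transcriptional response to bacterial lipopolysaccharide (LPS) was measured in bone marrow-derived macrophages of C57BL/6 mice. All 12 of the 12 libraries of the series entered this comparison, 3 in each of 4 groups: untreated WT, WT given 10 ng/mL LPS for 3 hours, untreated KO, and KO given the same LPS. For each gene the log2 fold change with LPS in WT was subtracted from that in KO, so a positive difference in response means a more positive LPS response in KO. A single transcript, that with the most reads over all libraries, stood for each of 24445 genes, and 11984 genes passed the filter on low counts and were tested. The labels describe the mice as myeloid DOT1L WT or KO and name Lyz2, the lysozyme gene, for the strain. All groups were differentiated with M-CSF from L929-conditioned medium. The sources used here do not give the deleted exons, the Cre status of the WT mice, or whether untreated and treated cultures came from the same animals. The replicates are labelled biological. The mean log2 CPM of 5 sex-linked genes (Xist and 4 Y-linked genes) was 4.21 to 4.39 in replicate 2 of all 4 groups and -0.21 to -0.05 in replicates 1 and 3, so replicate 2 came from other animals than those. Whether replicates 1 and 3 were separate animals is not given, and the p-values measure the spread between these libraries.

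DOT1L is the enzyme that methylates a lysine in the globular core of histone H3 along the bodies of transcribed genes, where it is found with complexes that help RNA polymerase II to elongate. LPS is recognised by TLR4 together with CD14. The MyD88 arm of the pathway activates NF-kB and AP-1 within minutes and induces cytokine, chemokine and feedback genes, while the TRIF arm activates IRF3, induces interferon beta and, through the interferon receptor, a later wave of interferon-stimulated genes. Macrophages given LPS are also known to turn to glycolysis and to reset cholesterol and fatty acid metabolism. The question addressed was which of these responses, if any, differed in size between the genotypes.

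A pair of promoters is shown because both genes are textbook meeting points of these pathways and both were among the 12 genes with the smallest p for a more negative response in KO. Each sequence is the 250 bases upstream of the RefSeq start on GRCm38.p6, the assembly of mm10, written 5′ to 3′ on the gene's strand. Capitals mark matches to the NF-kB letters (GGGA, any 4 bases, CC), to the interferon-stimulated response element (ISRE: GAAA, any 2 bases, GAAA) or to the AP-1 letters TGANTCA, each searched on both strands, and the matches did not overlap each other. The first is Cxcl10 at chr5:92348890-92349139, minus strand, with 1 ISRE match, 2 NF-kB matches and 1 AP-1 match.
Cxcl10: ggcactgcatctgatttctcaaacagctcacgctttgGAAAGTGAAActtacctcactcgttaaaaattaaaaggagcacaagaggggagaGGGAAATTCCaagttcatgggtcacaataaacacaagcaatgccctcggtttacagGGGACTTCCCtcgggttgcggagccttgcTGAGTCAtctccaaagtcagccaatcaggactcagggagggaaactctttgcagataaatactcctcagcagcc
The second is Irf1 at chr11:53769764-53770013, plus strand, with 1 NF-kB match close to the start.
Irf1: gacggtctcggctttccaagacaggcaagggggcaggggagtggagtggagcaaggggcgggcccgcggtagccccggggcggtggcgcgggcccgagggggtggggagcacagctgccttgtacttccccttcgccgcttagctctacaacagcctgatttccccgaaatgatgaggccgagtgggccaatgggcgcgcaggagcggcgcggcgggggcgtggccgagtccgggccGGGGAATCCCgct
Of 27025 promoters of this length, 17.3% held the NF-kB letters, 3.04% the ISRE letters and 6.87% the AP-1 letters. Among the tested interferon response genes with a promoter in the table, 21 of 39 held the ISRE letters. A match describes the sequence and was not tested as a binding site.

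Total counts were 8642581 to 13542953 per library, so that a floor of 3 counts equals 0.222 to 0.347 CPM before TMM scaling. The other CPM values given here are normalised read counts with TMM scaling, so this floor is not on their scale. Macrophage markers were present in every library, from 87.9 CPM at the lowest for Fcgr1 to 2971 CPM at the highest for Cd68, with Csf1r at 891 to 1286 CPM, Adgre1 at 711 to 1524 CPM and Itgam at 838 to 1088 CPM. The first principal component held 85.6% of the variance and separated the treated libraries from the untreated. WT replicate 1 lay off on its own on the second component (4.44%), at 36.1 untreated and 35.6 with LPS, where the other 10 libraries lay between -12.9 and 3.6. Results are therefore given with and without this pair of libraries where they change.

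Dot1l (chromosome 10, 80755101 to 80795461, mm10), the targeted gene, had 82.4, 111 and 111 CPM in untreated WT, 67.3, 69.2 and 60.6 CPM in LPS-treated WT, 97.8, 85.7 and 86.4 CPM in untreated KO and 73.3, 65.3 and 70.2 CPM in LPS-treated KO. The groups overlapped in both conditions, in untreated cells only through WT replicate 1. The values are per whole transcript, so they do not check the labels. Dot1l fell with LPS in both genotypes, by 0.63 in WT and by 0.37 in KO on the log2 scale. The difference in response was 0.26 ± 0.16 (SE), with a 95% interval of -0.09 to 0.60, and did not pass. A fit paired by replicate number without WT replicate 1, chosen after seeing the data, gave 0.37 and passed (adjusted p = 0.0405, edgeR). Lyz2 had 5729.5 to 7977 CPM in the 6 WT libraries and 2615 to 3439 CPM in the 6 KO libraries, with no overlap. Its response to LPS was nearly flat in both, with a difference of 0.02 ± 0.16 and an interval of -0.33 to 0.37.

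LPS changed most of the measured transcriptome in both genotypes. By edgeR's quasi-likelihood test with Benjamini-Hochberg adjustment, 3309 genes rose (27.6%) and 3567 fell (29.8%) in WT, and 3633 rose (30.3%) and 3700 fell (30.9%) in KO. On the average of both genotypes 4021 genes rose (33.6%) and 4402 fell (36.7%), and the genotypes' own fold changes had the same sign for 4020 of the first and 4400 of the second. Opposite responses largely cancel in that average, so this count is mostly set by how the genes were selected. Across the 11984 genes the WT and KO fold changes had a Pearson r of 0.973, which describes genes of the same libraries and is no test. With limma on the authors' RPKM values, which are not scaled for RNA composition, the split was 1733 higher and 7728 lower, and the median response of all genes was -0.49 against -0.04 here, so LPS responses are relative to the TMM scale. In bulk samples, fewer cells of a type and less RNA per cell cannot be told apart.

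**Figure D1:**
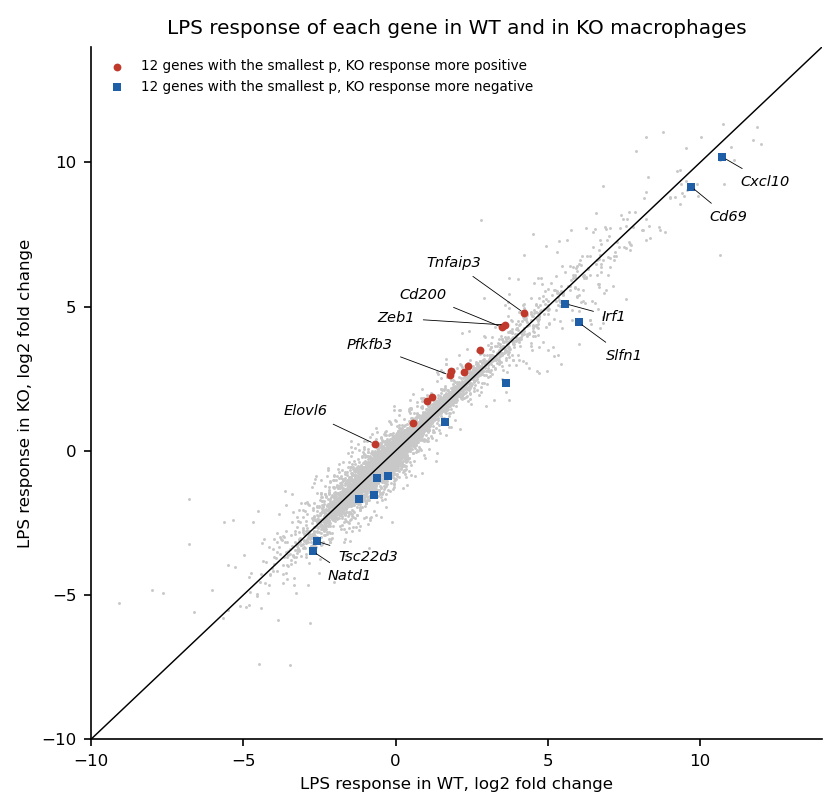
LPS response of 11984 genes in WT (x axis) and in KO (y axis), both as log2 fold changes, with the line of equal response. Each point is a gene. Red points and blue squares are the 12 genes with the smallest interaction p in each direction, which lie beside a cloud that follows the line (r = 0.973).

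No gene passed the test of the difference in response. Of 11984 genes, 0 were called (0.0%) by edgeR's quasi-likelihood test on all 12 libraries, and the smallest adjusted p rounded to 1.0. Unadjusted p fell under 0.05 for 288 genes (2.4%). Of these, 164 had a more positive response in KO (1.37%) and 124 a more negative one (1.03%). That share is smaller than an exact test gives when no gene differs, so 0 calls do not show equal responses. DESeq2 also called 0 genes and had 223 at an unadjusted p under 0.05, and limma-voom called 0 and had 294. Same-numbered libraries of a genotype deviated together, and with a replicate block for each genotype and number 0 genes were called as well, but 904 genes had an unadjusted p under 0.05 (7.54%, 540 higher, 4.51%, and 364 lower, 3.04%) and the smallest adjusted p, for Cd200, was 0.058. In the fit without the block, whose standard errors were mostly larger, the interval of the difference lay within a 2-fold change either way for 9471 of the 11984 genes (79.0%). It lay within 1.5-fold for 6204 (51.8%).

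Leaving out both libraries of WT replicate 1 changed the call. Of 12129 genes then tested, 24 passed (0.198%), 17 with a more positive response in KO (0.14%) and 7 with a more negative one (0.0577%), and 1025 had an unadjusted p under 0.05 (8.45%). WT replicate 1 was set apart by its values in these same data, and no other same-numbered pair of a genotype was left out. The WT libraries that remained, replicates 2 and 3, differ in the sex-linked genes. Leaving out untreated WT replicate 1 alone gave 0 calls and 1037 genes at an unadjusted p under 0.05 (8.54%). With the replicate block and without WT replicate 1, a setting chosen after the data were seen, 150 genes passed (1.24%), 70 more positive (0.577%) and 80 more negative (0.66%) in KO, and all 24 were among them. The median standard error of the difference was 0.205 with 12 libraries, 0.141 with the block and 0.162 without WT replicate 1.

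The 12 uncalled genes with the smallest p for a more positive response in KO are given first by their values and not as changes. Cd200 (costimulation list; chromosome 16, 45382111 to 45409060), a surface ligand whose receptor inhibits myeloid cells, had 8.32, 8.72 and 10.0 CPM in untreated WT, 110.4, 96.9 and 102 CPM in LPS-treated WT, 7.40, 6.4950 and 6.63 CPM in untreated KO and 139.7, 124 and 135 CPM in LPS-treated KO. KO libraries were lowest without LPS and highest with LPS, with no overlap in either condition. It rose with LPS in both genotypes, by 3.51 ± 0.10 in WT and 4.27 ± 0.10 in KO on the log2 scale, and the difference was 0.77 ± 0.14 (95% interval 0.46 to 1.07). Without WT replicate 1 it was 0.83 ± 0.14 and passed (adjusted p = 0.0174, edgeR). Tnfaip3 (chromosome 10, 19000910 to 19015410), the ubiquitin-editing enzyme that shuts off NF-kB signalling, had 75.1, 108 and 105 CPM in untreated WT, 1826, 1817 and 1699.6 CPM in LPS-treated WT, 75.0, 66.0 and 64.5 CPM in untreated KO and 1836, 2024 and 1775 CPM in LPS-treated KO. The treated groups overlapped, and the untreated KO libraries were all below the WT ones, replicate 1 of WT by very little. Its difference was 0.56 ± 0.17 (interval 0.19 to 0.93), and 0.69 ± 0.10 without WT replicate 1 (adjusted p = 0.00454, edgeR). Il1rn, the antagonist of the interleukin 1 receptor, had 174, 200.03 and 206 CPM in untreated WT, 1215, 896 and 909 CPM in LPS-treated WT, 185, 154 and 161 CPM in untreated KO and 1282, 1230.1 and 1315 CPM in LPS-treated KO. All KO libraries exceeded all WT ones with LPS, but WT replicate 1 came near them, and the difference was 0.56 ± 0.17, or 0.75 ± 0.10 without that replicate (adjusted p = 0.00307, edgeR).

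Pfkfb3 (chromosome 2, 11471430 to 11554071), which makes the allosteric activator of phosphofructokinase in glycolysis, had 36.5, 39.3 and 43.6 CPM in untreated WT, 168, 128 and 116 CPM in LPS-treated WT, 35.2, 36.1 and 33.4 CPM in untreated KO and 197, 243 and 203 CPM in LPS-treated KO. The untreated groups lay close together, with KO a little lower, and every treated KO library was above every treated WT library. It rose by 1.78 ± 0.13 in WT and 2.62 ± 0.13 in KO (log2), a difference of 0.83 ± 0.18 (interval 0.44 to 1.23), and of 1.02 ± 0.12 without WT replicate 1 (adjusted p = 0.000961, edgeR, the smallest of that fit). Predicted genes overlap its span, as they do those of Elovl6, Zeb1 and Pakap, and the strand setting of the counting is not given in the sources used here. Pla2g4a, the cytosolic phospholipase that frees arachidonic acid, had 21.5, 32.8 and 29.0 CPM in untreated WT, 64.6, 65.6 and 59.5 CPM in LPS-treated WT, 23.6, 20.5 and 23.3 CPM in untreated KO and 80.1, 83.1 and 80.3 CPM in LPS-treated KO, and WT replicate 1 was the lowest of the untreated WT libraries. Its difference was 0.67 ± 0.17, and 0.80 ± 0.12 without that replicate (adjusted p = 0.00454, edgeR). Elovl6, an elongase of long-chain fatty acids, had 14.4, 23.7 and 22.9 CPM in untreated WT, 14.1, 12.7 and 11.7 CPM in LPS-treated WT, 18.3, 16.2 and 18.8 CPM in untreated KO and 20.4, 23.7 and 18.4 CPM in LPS-treated KO. It fell with LPS in WT (-0.67 ± 0.17 log2) and did not pass in KO (0.23 ± 0.17), with a difference of 0.90 ± 0.24, or 1.12 ± 0.17 without WT replicate 1 (adjusted p = 0.00487, edgeR). In WT replicate 1 the gene was nearly flat, at a response of -0.03, against -0.89 and -0.95 in the other WT pairs.

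The other 6 genes of this direction were P2ry2, a receptor for extracellular nucleotides (0.71 ± 0.16), Prag1, a pseudokinase scaffold (0.94 ± 0.25), Zeb1, a zinc finger transcription factor (0.76 ± 0.21), Pakap, an anchoring protein of protein kinase A (0.49 ± 0.14), Ptpn12, a tyrosine phosphatase (0.41 ± 0.12), and Mt2, a metallothionein that binds zinc (0.73 ± 0.23). Zeb1 had 2.42, 2.46 and 2.06 CPM in untreated WT, 32.2, 27.2 and 25.3 CPM in LPS-treated WT, 2.30, 2.71 and 2.08 CPM in untreated KO and 48.6, 46.0 and 50.7 CPM in LPS-treated KO. The untreated groups overlapped, and the treated KO libraries were all above the treated WT ones. Mt2 was the one gene of the 24 named whose p was not under 0.05 with the replicate block. Its WT response was 3.41, 2.30 and 2.52 in replicates 1, 2 and 3, and its KO response was 3.33, 3.59 and 3.49, so WT replicate 1 lay among the KO values.

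**Figure D2:**
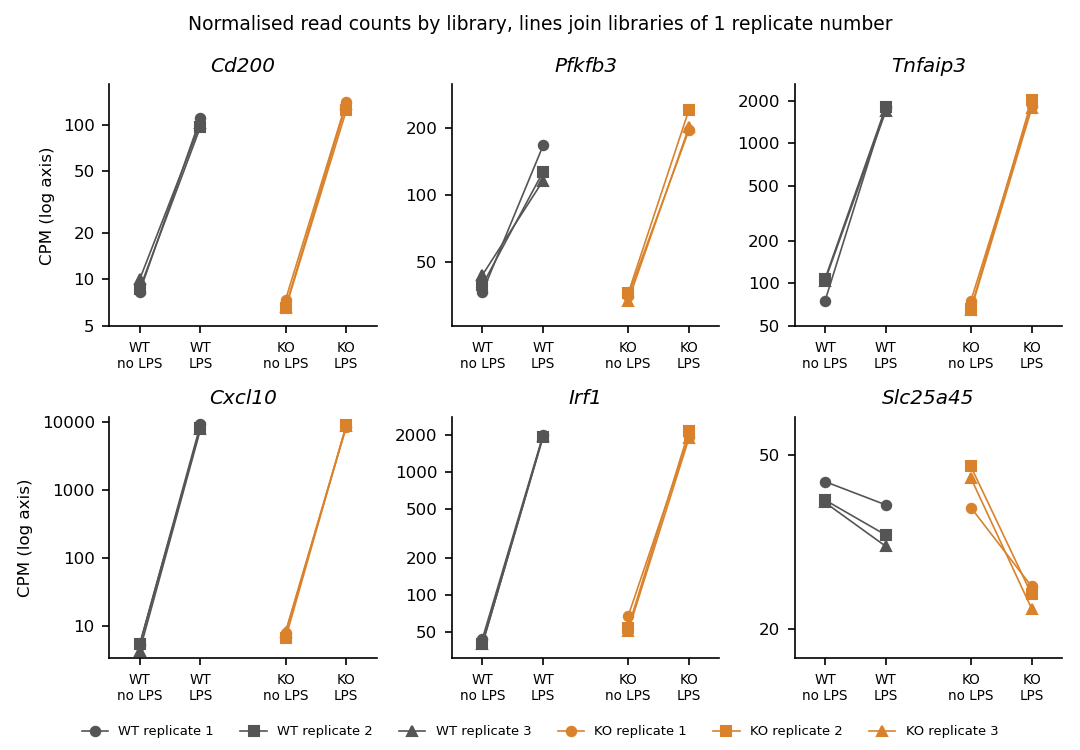
Normalised read count (CPM, log axis) of 6 genes in each of the 12 libraries, with a line joining the untreated and treated library of each replicate number. Treated KO libraries lie above treated WT libraries for Cd200 and Pfkfb3 and below them for Slc25a45, while for Cxcl10 and Irf1 the groups differ in the untreated libraries and overlap with LPS.

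Of the 12 uncalled genes with the smallest p for a more negative response in KO, 3 are described first. Their untreated KO libraries all lay above the untreated WT ones and their treated groups overlapped, as was also so for Slfn1 and Clmp below. The share of all genes with such patterns of levels is not given here. Neither genotype contrast passed for the first 3 (untreated adjusted p = 0.0868 for Cxcl10, 0.0955 for Irf1 and 0.0936 for Cd69, edgeR), and with LPS KO minus WT was 0.06 ± 0.10, 0.02 ± 0.10 and 0.13 ± 0.08 (log2). Cxcl10 (chromosome 5, 92346638 to 92348889), a chemokine that draws activated T cells and whose promoter is printed with the background, had 5.32, 5.41 and 4.35 CPM in untreated WT, 9294, 8273 and 7932 CPM in LPS-treated WT, 7.96, 6.57 and 8.19 CPM in untreated KO and 8539, 9164 and 8878 CPM in LPS-treated KO. Every untreated KO library was above every untreated WT library, and the treated groups overlapped. It rose by 10.72 ± 0.15 in WT and 10.19 ± 0.14 in KO (log2), a difference of -0.54 ± 0.16 (interval -0.88 to -0.20), and the spans of Cxcl10 and Art3 overlap. Irf1 (chromosome 11, 53770014 to 53778374), the interferon regulatory factor induced by NF-kB and interferon, had 44.1, 40.1 and 39.9 CPM in untreated WT, 1993, 1921 and 1959 CPM in LPS-treated WT, 67.7, 54.3 and 51.2 CPM in untreated KO and 1919, 2148 and 1877 CPM in LPS-treated KO. It too was higher in all untreated KO libraries and overlapped with LPS, with a difference of -0.46 ± 0.15 (interval -0.78 to -0.15). Cd69, an early activation antigen, had 2.23, 2.39 and 2.06 CPM in untreated WT, 1938, 1898 and 1736 CPM in LPS-treated WT, 3.98, 3.25 and 3.31 CPM in untreated KO and 1902, 2092 and 2083 CPM in LPS-treated KO and a difference of -0.53 ± 0.16. Its untreated counts were low, from 23 to 64 reads, and all KO values were above all WT values there.

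In 4 others, and in Gpr160 below, the untreated groups overlapped and all treated KO libraries were below the treated WT ones. The share of all genes with this pattern is not given either. These genes were chosen for a small p of the difference, which favours such separation, so the pattern tests nothing. Slc25a45, a mitochondrial carrier, had 43.5, 39.5 and 39.0 CPM in untreated WT, 38.5, 32.8 and 30.9 CPM in LPS-treated WT, 38.0, 47.2 and 44.4 CPM in untreated KO and 25.0, 24.003 and 22.3 CPM in LPS-treated KO. All treated KO libraries were below all treated WT libraries. Its WT change did not pass (-0.26 ± 0.11 log2), its KO fall did (-0.86 ± 0.11), and the difference was -0.60 ± 0.16 (interval -0.94 to -0.27). Tsc22d3, the glucocorticoid-induced leucine zipper, had 80.8, 70.6 and 68.3 CPM in untreated WT, 9.89, 13.5 and 12.6 CPM in LPS-treated WT, 72.0, 81.7 and 83.6 CPM in untreated KO and 9.46, 8.49 and 8.93 CPM in LPS-treated KO. Treated KO libraries were all below treated WT libraries, of which replicate 1 was the lowest, and the difference was -0.55 ± 0.17, or -0.77 ± 0.14 without WT replicate 1 (adjusted p = 0.0308, edgeR). Gcnt1, which branches the glycans of mucin-type proteins, had 88.0, 89.9 and 88.5 CPM in untreated WT, 39.7, 38.7 and 36.9 CPM in LPS-treated WT, 88.9, 92.4 and 90.5 CPM in untreated KO and 29.2, 31.9 and 24.3 CPM in LPS-treated KO and a difference of -0.46 ± 0.13. The treated KO libraries were again all below the treated WT ones. Plekho1, a membrane-binding adaptor, fell by 0.61 in WT and 0.94 in KO (log2), a difference of -0.33 ± 0.10.

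Natd1 (-0.76 ± 0.20) and the orphan receptor gene Gpr160 (-0.82 ± 0.22) also fell further in KO than in WT by their fitted values, with 25 to 48 and 29 to 42 reads in treated WT. Gprc5c, another orphan receptor gene, rose in both genotypes and had 10.7, 12.4 and 13.6 CPM in untreated WT, 35.1, 40.1 and 38.6 CPM in LPS-treated WT, 25.9, 32.6 and 27.1 CPM in untreated KO and 59.6, 62.6 and 49.5 CPM in LPS-treated KO, so KO was above WT without overlap in each condition, and the difference was -0.62 ± 0.18. Slfn1, an interferon-inducible schlafen gene (-1.56 ± 0.43), and Clmp, an adhesion molecule (-1.28 ± 0.38), had 4 to 9 reads in untreated WT libraries, so these fitted values rest on few reads. With LPS, Slfn1 had 40.6, 24.5 and 28.7 CPM in WT and 32.2, 43.5 and 34.0 CPM in KO, which overlapped.

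The 24 named genes kept their sign in each setting run, including each of the 12 fits without 1 library. With the replicate block, 23 of the 24 had a p under 0.05, and in 21 the 3 WT and 3 KO responses by replicate number did not overlap. Such non-overlap occurred in 965 of all genes with KO above WT (8.05%) and in 619 with KO below (5.17%). These 24 were chosen for their small p, so these counts describe them and test nothing. Without WT replicate 1, 10 of the 24 were among the 24 genes called, and 19 were among the 150 called when the block was added.

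**Figure D3:**
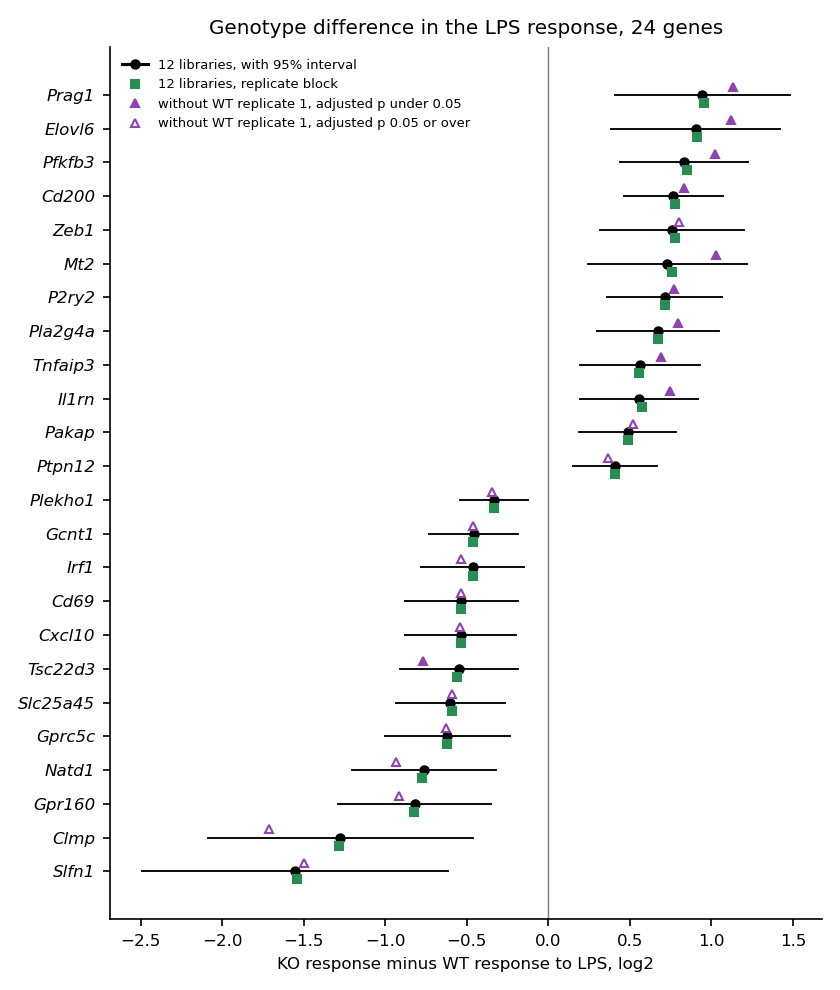
Difference in LPS response, KO minus WT (log2, x axis), of the 24 genes named by smallest p. Black points and bars are the estimate and 95% interval from 12 libraries, green squares the fit with a replicate block, and triangles the fit without WT replicate 1, filled where its adjusted p was under 0.05 (10 genes). The signs do not change between the 3 fits.

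Of the 24 genes called without WT replicate 1, 14 lie outside the rule by which genes were named and are given after their values were seen. Values in brackets are the difference in response without WT replicate 1 and then that on 12 libraries, where none passed. Of the 17 with a more positive response in KO, 15 rose with LPS on average, and the other 2, Elovl6 and the transcription regulator Id2 (0.45 ± 0.09, 0.38 ± 0.13), were not called for LPS. Of all genes tested on 12 libraries, 33.6% rose on average and 36.7% fell. Without WT replicate 1 the median standard error was 0.126 for genes that rose, 0.193 for those that fell and 0.172 for the rest. With the block added, 56 of the 70 more positive genes rose and 43 of the 80 more negative ones fell. Mt2 (1.03 ± 0.13, 0.73 ± 0.23), its neighbour Mt1 (0.57 ± 0.10, 0.45 ± 0.22) and the zinc importer Slc39a14 (0.81 ± 0.13, 0.65 ± 0.21) handle metals. Mt1 had 117, 97.0 and 90.5 CPM in untreated WT, 218, 129 and 142 CPM in LPS-treated WT, 78.2, 80.9 and 84.8 CPM in untreated KO and 174, 189 and 172 CPM in LPS-treated KO, with WT replicate 1 above its group mates in both conditions. Slc39a14 had 17.1, 28.3 and 28.5 CPM in untreated WT, 88.9, 92.4 and 81.6 CPM in LPS-treated WT, 21.9, 17.2 and 19.6 CPM in untreated KO and 109.5, 102 and 113 CPM in LPS-treated KO, with all treated KO libraries above all treated WT ones. The manganese superoxide dismutase gene Sod2 (0.50 ± 0.10, 0.37 ± 0.15), the calcium-activated potassium channel gene Kcnn4 (0.56 ± 0.09, 0.38 ± 0.27), the Wnt receptor gene Fzd7 (0.53 ± 0.10, 0.39 ± 0.15), the semaphorin gene Sema4c (1.14 ± 0.15, 0.83 ± 0.27) and the phosphatase gene Ubash3b (0.46 ± 0.09, 0.31 ± 0.17) completed the group. Of the 7 with a more negative response, 6 fell with LPS on average. They were Tsc22d3, Arl4c (-0.74 ± 0.14, -0.40 ± 0.27), an LXR target, Slc29a3 (-0.45 ± 0.09, -0.32 ± 0.19), a lysosomal nucleoside transporter gene, Rnf144b (-0.68 ± 0.13, -0.40 ± 0.19), a ubiquitin ligase gene, Fblim1 (-0.51 ± 0.10, -0.34 ± 0.13), a focal adhesion gene, and C77080 (-0.43 ± 0.09, -0.33 ± 0.11). The remaining gene, AW112010 (-1.15 ± 0.20, -0.69 ± 0.35), rose 7.05 in WT and 6.36 in KO (log2, 12 libraries), and had 7.74 CPM in untreated WT replicate 1 against 2.88 and 3.17 CPM in its group mates. Single WT libraries moved several of these values. Without 1 library Kcnn4 ran from 0.20 (untreated WT replicate 2) to 0.61 (untreated WT replicate 1), Ubash3b from 0.19 to 0.44 (in the same order of libraries), Arl4c from -0.74 (untreated WT replicate 1) to -0.29 (untreated WT replicate 2), Slc29a3 from -0.55 (untreated WT replicate 1) to -0.22 (treated WT replicate 1), AW112010 from -1.27 (untreated WT replicate 1) to -0.46 (untreated WT replicate 2), and Mt1 reached 0.72 without treated WT replicate 1.

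WT replicate 1 also differed from the other WT libraries in the summed CPM of markers of other blood cells, higher for some lists and lower for others. Such sums weigh the most abundant markers most. The 10 of 14 monocyte markers tested summed to 117 CPM in its untreated library against 64.1 and 63.0 CPM in the other WT libraries and 112 to 148 CPM in KO, and with LPS to 395 CPM against 286 and 271 CPM in WT and 441 to 463 CPM in KO. The 7 of 13 neutrophil markers tested summed to 149.9 CPM against 80.7 and 86.8 CPM untreated, with KO at 143 to 151 CPM, and to 238 CPM against 145 and 150.5 CPM with LPS, with KO at 209 to 227 CPM. The 3 of 17 lymphocyte markers tested summed to 50.2 CPM against 28.3 and 25.7 CPM untreated. Its sum was lower for the 9 of 16 dendritic cell markers tested, at 157 CPM against 218 and 241 CPM untreated. With LPS that sum was 299.7 CPM against 377 and 347 CPM. The mean log2 CPM of these 9 genes was 1.75 against 1.73 and 1.90 untreated, where WT replicate 1 was not the lowest, and 3.14 against 3.41 and 3.26 with LPS. For the 3 of 13 mast cell and basophil markers its sum was 15.7 CPM against 23.5 and 22.1 CPM untreated. With LPS their mean log2 CPM was 2.28 against 2.14 and 2.28. The neutrophil marker Ly6g had at most 1 read in any library, as did the T cell genes Cd3e and Cd3g. The part of these cells in the results was not tested.

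Interferon response genes rose with LPS in both genotypes, with fold changes in KO that were mostly a little smaller by their fitted values. Of 50 listed genes 49 were tested and all 49 rose on average, with a median response of 4.70 in WT and 4.41 in KO (log2). Leaving out Ifnb1, which had no reads without LPS, the difference in response was below 0 for 42 of 48 and above 0 for 6, with a median of -0.28, while 45.3% of all genes tested were below 0 and the median of all was 0.02. The gene lists, here and below, were chosen with earlier results of these data known, so such counts describe them and test nothing. None of the 49 was called on 12 libraries, with the block or without WT replicate 1. With both of these changes Gbp3, a guanylate-binding protein gene, was (-0.72, adjusted p = 0.0367, edgeR), against -0.29 ± 0.33 on 12 libraries. Those with an unadjusted p under 0.05 on 12 libraries (1.03% of all genes were lower at that p) were Slfn1, Iigp1, an immunity-related GTPase gene (-1.01 ± 0.43), and Oasl1, an oligoadenylate synthetase-like gene (-0.52 ± 0.23), and with the replicate block 1 of the 49 was, Slfn1. Rsad2 (viperin), the most abundant, had 81.7, 91.3 and 44.6 CPM in untreated WT, 19979, 20513 and 18674 CPM in LPS-treated WT, 94.7, 92.5 and 119.8 CPM in untreated KO and 19818, 21447 and 20191 CPM in LPS-treated KO and a difference of -0.44 ± 0.27 (interval -1.03 to 0.14). Of 3 classical members chosen after their values were seen, Irf7, the factor that amplifies interferon production, had a difference of -0.53 ± 0.27, Ifit1, an inhibitor of viral RNA translation, -0.52 ± 0.27, and Isg15, a ubiquitin-like modifier, -0.09 ± 0.20.

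In the plot of list levels, the mean log2 CPM of these 49 genes in untreated cells was 4.26, 4.11 and 3.47 in WT and 4.41, 4.20 and 4.58 in KO, so the groups overlapped and WT replicate 3 was the lowest. With LPS it was 9.10, 8.96 and 8.93 in WT and 9.08, 9.21 and 9.09 in KO, which overlapped too. The median difference depended on single untreated libraries. It was -0.04 without untreated WT replicate 3, with 29 of the 49 genes below 0, Ifnb1 included, and -0.56 without untreated WT replicate 1, with 45 below 0. Without both libraries of WT replicate 1 it was -0.45, with 44 below 0. Ifnb1, the gene of interferon beta that starts this wave, had 0 reads in all 6 untreated libraries and, with LPS, 6.59, 12.8 and 10.4 CPM in WT and 7.34, 6.19 and 5.73 CPM in KO. The treated groups overlapped, and with no reads in the untreated libraries no difference in response can be given for it.

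**Figure D4:**
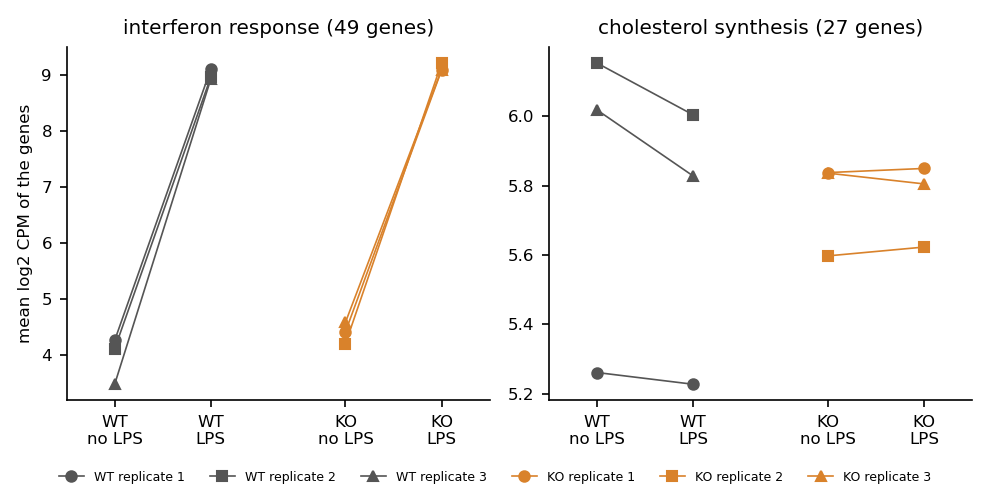
Mean log2 CPM of the 49 interferon response genes (left) and of the 27 cholesterol synthesis genes (right) in each library, with lines joining libraries of 1 replicate number and a separate vertical scale in each panel. Untreated WT replicate 3 (3.47) is lowest on the left, and WT replicate 1 (5.26 and 5.23) lies below all others on the right.

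Cytokine and chemokine genes showed no shared direction. Of 33 cytokine genes 30 were tested, 4 of them (Csf2, Il12a, Il19 and Il33) without a read in a whole group, and of the other 26 the difference was above 0 for 11 and below 0 for 15, with a median of -0.10. Of 26 chemokine genes 23 were tested, and without Ccl17, which had no reads in a group, 15 were above 0 and 7 below, against 54.7% of all genes above 0. Il1rn and Cxcl10 were the one member of each list with an unadjusted p under 0.05. With Ccl17 the chemokine median was 0.15 on 12 libraries, 0.35 without untreated WT replicate 1, -0.01 without untreated WT replicate 2 and -0.02 without untreated WT replicate 3. Tnf, the tumour necrosis factor gene, had 19.9, 42.2 and 45.3 CPM in untreated WT, 2436, 2426 and 2541 CPM in LPS-treated WT, 26.7, 20.6 and 27.1 CPM in untreated KO and 2134, 1986 and 2314 CPM in LPS-treated KO. The untreated WT libraries were split, with replicate 1 below the KO values and the others above them, and the treated KO libraries were all below the treated WT ones. Its difference was 0.33 ± 0.30 (interval -0.32 to 0.99), and 0.57 without WT replicate 1, which did not pass (adjusted p = 0.155, edgeR). Among the settings run it passed in 1, with the block and without WT replicate 1. Ccl2, Ccl4 and Ccl7, chemokines that draw monocytes and other leukocytes, were among the 150 genes of that setting as well and are named after their values were seen.

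Several hallmark LPS genes were almost silent without LPS, so their fitted differences rest on few reads and are given after the levels with LPS. Il6 had 0 to 3 reads in untreated libraries and, with LPS, 234, 238 and 234 CPM in WT and 313, 216 and 356 CPM in KO, which overlapped. Il12b, a cytokine subunit gene, had 0 to 5 reads untreated and then 434, 320 and 333 CPM in WT and 389, 388 and 452 CPM in KO, which overlapped. Nos2, the inducible nitric oxide synthase, had 1 to 16 reads untreated and then 916, 927 and 667 CPM in WT and 1152, 1079 and 1337 CPM in KO, with every KO library above every WT one. Ch25h, which hydroxylates cholesterol to an antiviral oxysterol, had 0 to 10 reads untreated and then 11.4, 18.7 and 12.97 CPM in WT and 46.4, 40.7 and 51.8 CPM in KO, again without overlap. The fitted differences in response were -0.64 ± 1.09 for Il6, -1.35 ± 0.75 for Il12b, -0.96 ± 0.71 for Nos2 and -0.03 for Ch25h (-0.67 to 0.37 without 1 library), so none was above 0 although KO levels with LPS were higher for Nos2 and Ch25h. Il10, an anti-inflammatory cytokine, had 6 to 10 reads in untreated WT and 20 to 29 in untreated KO, and with LPS 14.7, 14.9 and 11.8 CPM in WT and 25.2, 28.5 and 23.9 CPM in KO. KO was thus above WT in both conditions, and the difference in response was -0.33 ± 0.29 (interval -0.96 to 0.29). Slamf1, a costimulatory receptor, had 1 to 5 reads untreated and with LPS 8.09, 4.85 and 6.03 CPM in WT and 20.3, 23.9 and 21.4 CPM in KO. It was the one gene called when limma was run on the authors' RPKM values (adjusted p = 0.0144).

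Feedback regulators and signalling genes were mixed. Of 38 feedback genes 37 were tested, 20 above 0 and 17 below, with a median of 0.02 that became -0.0052 when the median-ratio size factors of DESeq2 replaced TMM, and was also below 0 without untreated KO replicate 3 or treated WT replicate 3. The 3 with an unadjusted p under 0.05 were all above 0: Tnfaip3, Nfkbia, which encodes the inhibitor that holds NF-kB in the cytoplasm (0.33 ± 0.12), and Dusp16, a phosphatase of stress-activated kinases (0.36 ± 0.15). With the replicate block 7 of 37 were above 0 at that p and none below. In that fit 4.51% of all genes were above 0 and 3.04% below at that p. The feedback list was chosen with earlier results of these data known, so its share tests nothing. The most abundant, Tnfaip2, had a difference of 0.08 ± 0.12. Of the 36 genes of the TLR4 and NF-kB pathway, 22 were above 0 and none had an unadjusted p under 0.05, Traf1 being closest (0.35 ± 0.20) and the co-receptor gene Cd14 the most abundant (0.27 ± 0.19). Among 29 tested immediate early genes 19 were above 0, and the oncogene Myc, which fell in both genotypes, had the smallest p (-0.40 ± 0.18), while Klf6, the most abundant, had a difference of -0.01 ± 0.13.

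Inflammatory transcription factors held 7 of 36 genes at an unadjusted p under 0.05, 4 above 0 and 3 below. The share of all genes was 2.4% (1.37% above and 1.03% below). This list was chosen with earlier results of these data known, so its share tests nothing. Above 0 were Zeb1, Batf3 (0.92 ± 0.39), a factor of dendritic cell development, Id2 (0.38 ± 0.13) and Runx1 (0.25 ± 0.11), and below 0 were Irf1, Tox2 (-0.67 ± 0.27) and Nfil3 (-0.33 ± 0.15). Batf3 had 1.06, 1.41 and 1.92 CPM in untreated WT, 2.70, 3.33 and 2.39 CPM in LPS-treated WT, 1.18, 1.47 and 2.08 CPM in untreated KO and 5.66, 6.65 and 4.70 CPM in LPS-treated KO, with all treated KO libraries above the treated WT ones. Of 24 tested effector enzyme genes 1, Steap4, had no reads in a group, and 14 of the other 23 were above 0. Pla2g4a, the prostaglandin E synthase gene Ptges (1.04 ± 0.37) and Sod2 (0.37 ± 0.15) had an unadjusted p under 0.05, while Acod1, which makes itaconate and was the most abundant, had a difference of -0.10 ± 0.36. Of 19 costimulation genes 13 were above 0, with Cd200, the CD40 ligand receptor gene Cd40 (0.45 ± 0.18) and the adhesion gene Vcam1 (1.21 ± 0.53) at an unadjusted p under 0.05, and Icam1, the most abundant, at 0.02 ± 0.11. Of 26 inflammasome and cell death genes 20 were above 0. Bcl2a1d, an anti-apoptotic gene with near-identical copies among which reads may be split and 4 to 9 reads in untreated KO, had the smallest p (0.98 ± 0.43), and the caspase regulator Cflar was the most abundant (0.11 ± 0.13). Of 28 tested matrix remodelling genes 19 were above 0, with the protease inhibitor gene Timp1 (0.77 ± 0.32, its span overlapping Syn1) smallest in p and the cathepsin gene Ctsb (0.01 ± 0.10) most abundant.

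Cholesterol synthesis genes had small differences that leaned one way on 12 libraries and the other way in some fits with 11. Of 28 listed genes 27 were tested, 23 with a difference above 0 and 4 below, and the median was 0.10, with median responses of 0.05 in WT and 0.01 in KO. None had an unadjusted p under 0.05, and with the replicate block 7 did, all above 0, where 4.51% of all genes did so, among them, chosen after their values were seen, Insig1, a sterol-dependent regulator of the pathway (0.20 ± 0.31 without the block), and Idi1, an isomerase of its isoprenoid units (0.78 ± 0.66). The median became -0.07 without treated WT replicate 1 (12 genes above 0), -0.08 without untreated WT replicate 2 (8 above 0) and -0.003 without untreated WT replicate 3 (11 above 0), and 0.29 without untreated WT replicate 1 and 0.26 without treated WT replicate 2. The mean log2 CPM of the 27 genes was 5.26, 6.15 and 6.02 in untreated WT and 5.23, 6.00 and 5.83 in treated WT, against 5.84, 5.597 and 5.84 in untreated KO and 5.85, 5.62 and 5.80 in treated KO. The spread between WT replicates was thus larger than the change with LPS in either genotype.

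Of 15 tested LXR target and efflux genes 12 were below 0, with a median of -0.07 that was 0.04 without treated WT replicate 1 and -0.35 without untreated WT replicate 1. Rxra, the partner receptor of LXR, had the smallest p (-0.38 ± 0.19), and Lpl, lipoprotein lipase, was the most abundant (0.04 ± 0.12). Of 25 lipid uptake and storage genes 15 were below 0, with the scavenger receptor gene Msr1 smallest in p (0.23 ± 0.11) and Cd36 most abundant (0.09 ± 0.20). Among 21 tested fatty acid synthesis genes 12 were above 0, with Elovl6 alone at an unadjusted p under 0.05 and the desaturase gene Scd2 most abundant (-0.02 ± 0.12). Of 22 glycolysis and hypoxia genes 16 were above 0, Pfkfb3 alone at that p, and Aldoa, an aldolase gene, the most abundant (-0.01 ± 0.13). Among 20 genes of NRF2 and oxidative stress 14 were below 0, the glutathione reductase gene Gsr had the smallest p (0.31 ± 0.12), and Fth1, the ferritin heavy chain gene, was the most abundant (0.03 ± 0.17).

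Of 26 macrophage identity genes 17 were below 0, Siglec1 having the smallest p (-0.23 ± 0.15). Cd74, the invariant chain of MHC class II, had 193, 117 and 97.1 CPM in untreated WT, 409, 210.1 and 193 CPM in LPS-treated WT, 263, 287 and 301 CPM in untreated KO and 517, 561 and 564 CPM in LPS-treated KO, so KO was above WT within untreated cells and within treated cells, and WT replicate 1 was the highest WT library in both. Its difference in response was -0.05 ± 0.37 (interval -0.85 to 0.75), and of 18 tested antigen presentation genes 10 were below 0, with B2m the most abundant (-0.02 ± 0.36) and H2-Ob the one at an unadjusted p under 0.05. Of 15 alternative activation genes tested with reads in each group 8 were above 0, with the interleukin 4 receptor gene Il4ra smallest in p (0.61 ± 0.31) and the mannose receptor gene Mrc1 most abundant (0.01 ± 0.16). Among 28 cell cycle genes 22 were above 0 with a median of 0.08, which was -0.07 without untreated WT replicate 2 (6 above 0), -0.04 without treated WT replicate 1 (8 above 0), and just below 0 without untreated KO replicate 2 (13 above 0) or untreated WT replicate 3 (14 above 0). Plk1 had the smallest p (-0.25 ± 0.13) and Mki67 was the most abundant (-0.10 ± 0.20). DOT1L and its elongation partners split into 12 above and 10 below 0 of 22 tested, with Cdk9, the elongation kinase, smallest in p (0.29 ± 0.12) and Aff1, a scaffold of the super elongation complex, most abundant (0.18 ± 0.14). Of 13 HOXA and MEIS pathway genes 4 passed the filter.

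Marker lists of other cell types held 3 to 10 tested genes each, and in none was a gene called on 12 libraries, with the block or without WT replicate 1. With both changes the monocyte marker Ms4a4c was (-1.22, adjusted p = 0.00247, edgeR), against -0.42 ± 0.55 on 12 libraries. Car2, a carbonic anhydrase of erythroid cells and osteoclasts, had 0.968, 1.12 and 1.84 CPM in untreated WT, 5.69, 10.6 and 13.7 CPM in LPS-treated WT, 1.93, 1.55 and 2.27 CPM in untreated KO and 31.3, 27.5 and 30.1 CPM in LPS-treated KO. All treated KO libraries were above all treated WT libraries, and the difference was 1.01 ± 0.43 (interval 0.08 to 1.95). Vcan (-0.27 ± 0.25) was the most abundant monocyte marker, Itgax (0.19 ± 0.29) that of dendritic cells and Mmp8 (-0.07 ± 0.31) that of neutrophils. Cd4 (0.07 ± 0.31) was that of lymphocytes, Pf4 (0.02 ± 0.17) that of megakaryocytes and Atp6v0d2 (-0.02 ± 0.25) that of osteoclasts. In the stromal list it was Vwf (-0.0017 ± 0.14), an endothelial gene, and the collagen genes Col1a1, Col1a2 and Col3a1 did not pass the filter. Of the 31 lists, 8 kept the sign of their median in each fit without 1 library: interferon response and lipid uptake below 0, and effector enzymes, costimulation, inflammasome and cell death, matrix remodelling, osteoclast markers, and erythroid and megakaryocyte markers above 0. For the other 23 the sign turned in at least 1 such fit, so their counts above and below 0 describe these 12 libraries.

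**Figure D5:**
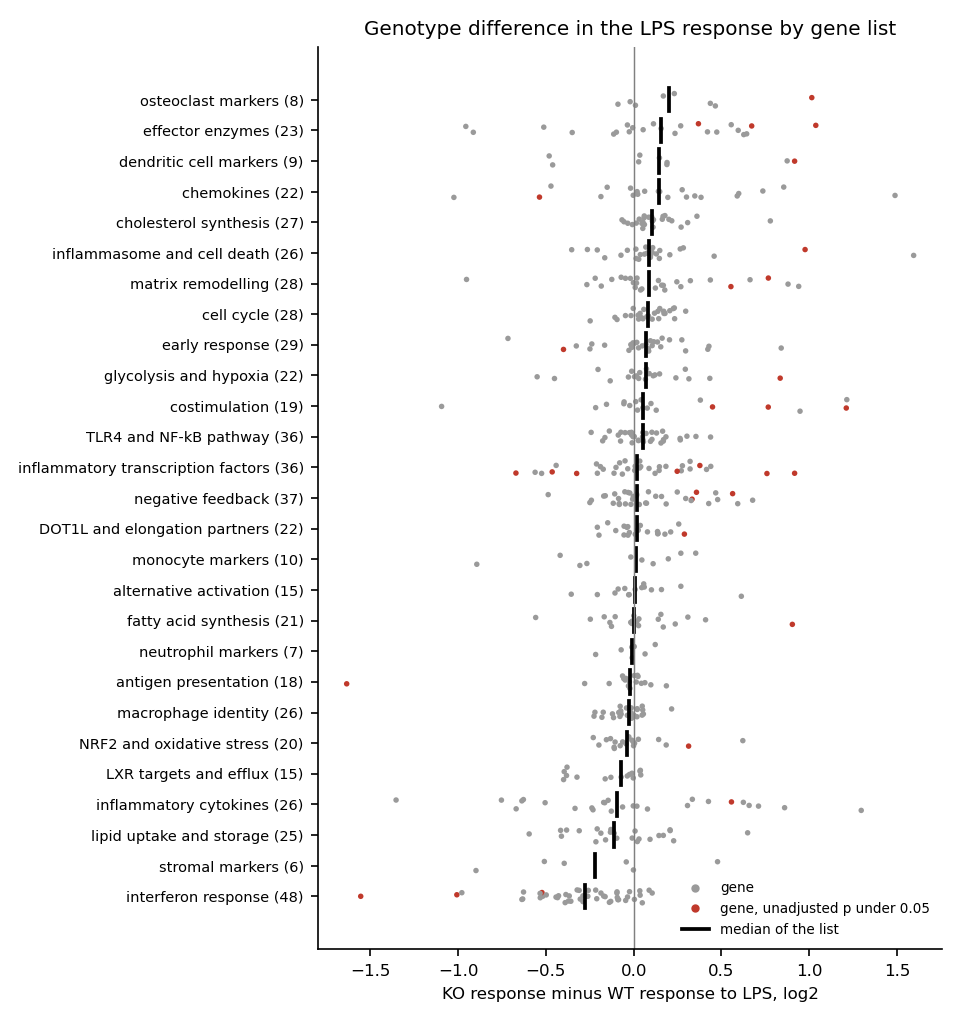
Difference in LPS response, KO minus WT (log2, x axis), of each tested gene in the lists with at least 5 tested members, sorted by median, with the number of genes in brackets. Genes without any read in a whole group are left out, red points have an unadjusted p under 0.05, and bars are medians. The interferon response median (-0.28 for 48 genes) lies lowest.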

How the data were processed

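RNA from 12 cultures was sequenced, and the authors deposited raw read counts per transcript and RPKM values (reads scaled by transcript length and library size) for untreated and treated cells in separate tables. Per the submitters' processing notes, STAR 2.5.2b, SAMtools 1.3.1 and mm10 were used. The counting tool, annotation and strand setting are not stated there. The count tables were joined by transcript (35745). Names came from RefSeq for 35435 and GENCODE for 193, and 117 unnamed transcripts (0.259% to 0.738% of counts) were left out.

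Counts were filtered with filterByExpr, scaled by TMM and fitted with edgeR 4.0.16 (R 4.3.3), quasi-likelihood, robust, 4 groups, Benjamini-Hochberg threshold 0.05. The scripts were tested on simulated data. Log2 CPM used a prior count of 2, and intervals are 95%. Alternatives used limma 3.58.1, DESeq2 1.42.0 and log2(RPKM + 1). Intervals and floors cover counting error and spread between these libraries only. The members and gene lists were chosen with earlier results of these data known.

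Replicate numbers were taken as pairs for the block, though the labels do not say that same-numbered cultures share an animal. Deviations of same-numbered untreated and treated libraries from their group means correlated at 0.73, 0.76 and 0.50 in WT and 0.42, 0.64 and 0.36 in KO, over 9929 genes, each above 0.1. For different numbers of a genotype r ran from -0.63 to 0.29. Between the genotypes, which share no animal, it ran from -0.39 to 0.37, so the KO pairing is less clear than that in WT. The replicate block therefore stands beside the results, with 0 calls and 904 genes at an unadjusted p under 0.05.

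Genes were named as follows: called genes, up to 12 per direction, with mean log2 CPM of at least 2; as there were none, the 12 uncalled genes with the smallest p in each direction, without predicted genes, small RNAs, pseudogenes and sex genes; in each list the called members, the member with the smallest p and the most abundant; and Dot1l, Lyz2, Tnf, Il6, Il10, Il12b, Ifnb1, Nos2, Ch25h and Cd74. Some members that this rule names are not reported here.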

Additional observations from a re-analysis of the deposited data

Results flagged for a closer look

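H2-Ob, the beta chain of an MHC class II-like chaperone (mm10 chromosome 17, 34238905 to 34245908), was flagged by a rule. The rule asked for WT and KO responses of opposite sign in every replicate number, so that pattern tests nothing. H2-Ob had 0.774, 0.914 and 0.074 CPM in untreated WT, 1.35, 1.01 and 0.91 CPM in LPS-treated WT, 1.24, 1.39 and 2.34 CPM in untreated KO and 0.708, 1.2 and 1.03 CPM in LPS-treated KO. By replicate number each of the 3 WT pairs was higher with LPS and each of the 3 KO pairs lower, and the fitted difference in response was -1.64 ± 0.73. It was tested and did not pass the adjustment (adjusted p = 1.0, edgeR). The values rest on 1 to 36 reads per library, and untreated WT replicate 3 held 1 read.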

How the results depend on the processing

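The count of 0 genes with a different LPS response held with DESeq2, limma-voom, median-ratio size factors, either other filter, averaged transcripts, both replicate blocks, without replicate 2 (the libraries earlier results found to be male), and in each fit without 1 library (0 to 0 in both directions). It did not hold without WT replicate 1, a pair set apart by its values in these data (17 more positive and 7 more negative in KO). With the replicate block added to that, 70 and 80 passed, a setting chosen after the data were seen. With limma on RPKM 1 passed, more positive in KO. The replicate block alone changed no call, and 904 genes in place of 288 had an unadjusted p under 0.05. Without 1 library that number was 216 to 1037, the highest without untreated WT replicate 1. LPS calls without 1 library were 3896 to 4282 higher and 4233 to 4600 lower on average, 3120 to 3723 and 3200 to 3695 in WT, and 3280 to 3911 and 3318 to 4167 in KO. With limma on RPKM they were 1733 higher and 7728 lower on average, 1588 and 7039 in WT, and 1607 and 7045 in KO. The cause was not tested. The median difference of all genes, 0.02, was below 0 with DESeq2, RPKM, median-ratio size factors, without WT replicate 1 and in 6 fits without 1 library, so signs of small differences carry little weight.

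Uncalled genes whose difference turned its sign are given here. With DESeq2 the values were Icam1 -0.000595, Ctsb -0.015, Mrc1 -0.014, Lyz2 -0.0025 and Pf4 -0.0039. With median-ratio size factors in edgeR the values were Icam1 -0.0029, Ctsb -0.015, Mrc1 -0.014, Lyz2 -0.0025 and Pf4 -0.0039. Without the 4 libraries of replicate 2 the values were Tnfaip2 -0.013, Icam1 -0.015, Ctsb -0.0018, Cd79b -0.028, Vwf 0.11, Pf4 -0.079 and Atp6v0d2 0.10. Without WT replicate 1 the values were Acod1 0.074, Ctsb -0.0081, Aldoa 0.049, Fth1 -0.043, Mrc1 -0.090, Lyz2 -0.028, Cd4 -0.14 and Ch25h 0.23. With limma on RPKM the values were Icam1 -0.014, Ctsb -0.031, Fth1 -0.016, Mrc1 -0.038, Lyz2 -0.020, Vcan 0.40, Hdc 0.33, Cd4 -0.0050, Pf4 -0.037, Il6 0.25, Il10 0.24, Il12b 0.11, Nos2 0.41 and Ch25h 1.31. With limma-voom the values were Acod1 0.0041, Hdc 0.36 and Vwf 0.0030. Without a count filter the value was Vwf 0.0013. With the replicate block by genotype and number the value was Vwf 0.0039. With the replicate block by number alone the value was Vwf 0.0039. With the replicate block and without WT replicate 1 the values were Acod1 0.082, Ctsb -0.0085, Aldoa 0.051, Fth1 -0.040, Mrc1 -0.092, Lyz2 -0.027, Cd4 -0.13 and Ch25h 0.25. Lowest and highest without 1 library were Acod1 -0.43 to 0.23, Aldoa -0.094 to 0.048, Atp6v0d2 -0.32 to 0.12, B2m -0.50 to 0.25, Cd36 -0.046 to 0.20, Cd4 -0.30 to 0.24, Cd74 -0.41 to 0.37, Cd79b -0.21 to 0.71, Ch25h -0.67 to 0.37, Ctsb -0.042 to 0.031, Fth1 -0.15 to 0.14, Hdc -1.03 to 0.48, Icam1 -0.047 to 0.055, Itgax -0.045 to 0.38, Klf6 -0.12 to 0.081, Lpl -0.028 to 0.095, Lyz2 -0.13 to 0.12, Mki67 -0.29 to 0.047, Mmp8 -0.47 to 0.14, Mrc1 -0.13 to 0.062, Ngp -0.67 to 0.29, Pf4 -0.15 to 0.12, Scd2 -0.12 to 0.034 and Vwf -0.076 to 0.12. Il6, Nos2 and Ch25h have few reads in the untreated groups, so depth limits their values, and Ch25h also turned sign without WT replicate 1.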
